A study of Homo sapiens with 14 samples.

Results

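Chromatin accessibility in clone M2, a clone of the human breast cancer line SUM149PT, was compared with that of the unselected line, called Parental. The labels describe this established line, grown from an inflammatory breast cancer (IBC), as ER-/PR-, which means that it lacks both hormone receptors. The comparison rests on 4 libraries, 2 of M2 and 2 of Parental, out of 14 in the series, and the other 10 are from the clones E, EM1, EM2, EM3 and M1, with 2 libraries each. No group was treated, all were grown under conditions that ATCC recommends, and M2 is 1 clone, so what is particular to that clone and what is particular to its cell state cannot be told apart. Whether a group's libraries came from separate cultures is not stated, so p-values measure the spread between these libraries, which may be technical. M2 is called mesenchymal here, which its label does not state in words, and the epithelial genes CDH1, EPCAM and GRHL2 and the mesenchymal gene VIM served as a check of the name.

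In ATAC-seq a transposase cuts accessible DNA and adds sequencing adapters, so that open regulatory regions collect many fragments and closed chromatin collects few. The number of fragments also follows the amount of DNA: a chromosome arm present in fewer copies gives fewer fragments at all its regions, whether they are open or closed. In an epithelial-mesenchymal transition, epithelial cells lose the junctions and the transcription factors that hold a sheet together and take up vimentin filaments, a fibronectin matrix and motility. Grainyhead-like and OVOL factors keep the epithelial programme active, and ZEB, SNAI and TWIST factors repress it.

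The M2 libraries held 9288524 and 14524451 counts and the Parental libraries 11102268 and 11878329, over 65774 regions with a median width of 407 bp. Library totals across the series ran from 8138944 to 16786823. Over regions, which are not independent replicates, the log2 of CPM, the count scaled to a fixed library total, correlated at 0.967 between the M2 libraries, at 0.97 between the Parental libraries and at 0.25 to 0.257 between M2 and Parental. E replicate 1 stands apart: it carried counts at regions that M2 covered and Parental did not (values are given with those regions). In the test of M2 against Parental it enters only the estimate of the spread, and without it 21615 regions were higher and 23348 lower in M2, against 21144 and 22949 with it.

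The epithelial marker genes had nearly closed gene ends in M2 and the vimentin gene was more open. A gene end is a region within 1 kb of either end of a gene, since the gene table gives no strand. CDH1 encodes E-cadherin, the adhesion molecule of epithelial junctions. Its region at 68738070 to 68738719 on chromosome 16 (hg38) held 48.2 and 31.6 CPM in Parental and 0.458 and 0.535 CPM in M2. The libraries of both groups lay far apart, with a log2 change of -6.28 (approximate SE 0.40, adjusted p = 4.9e-08, edgeR quasi-likelihood test). EPCAM, an epithelial adhesion molecule, held 50.6 and 48.3 CPM in Parental and 0.687 and 0.84 CPM in M2, a log2 change of -5.97 (SE 0.27, adjusted p = 5.9e-09). GRHL2, a grainyhead-like factor, held 43.5 and 42.6 CPM in Parental and 0 and 0.0764 CPM in M2. That was 1 count in M2 against 982 in Parental, or 939-fold lower (95% exact binomial interval 168 to 37100). VIM, which encodes vimentin, held 17.8 and 24.5 CPM in Parental and 64.0 and 66.6 CPM in M2, a log2 change of 1.63 (SE 0.28, adjusted p = 0.0002). All 4 markers moved as the name mesenchymal implies. In bulk libraries, fewer cells with an open region and less opening per cell cannot be told apart.

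**Figure D1:**
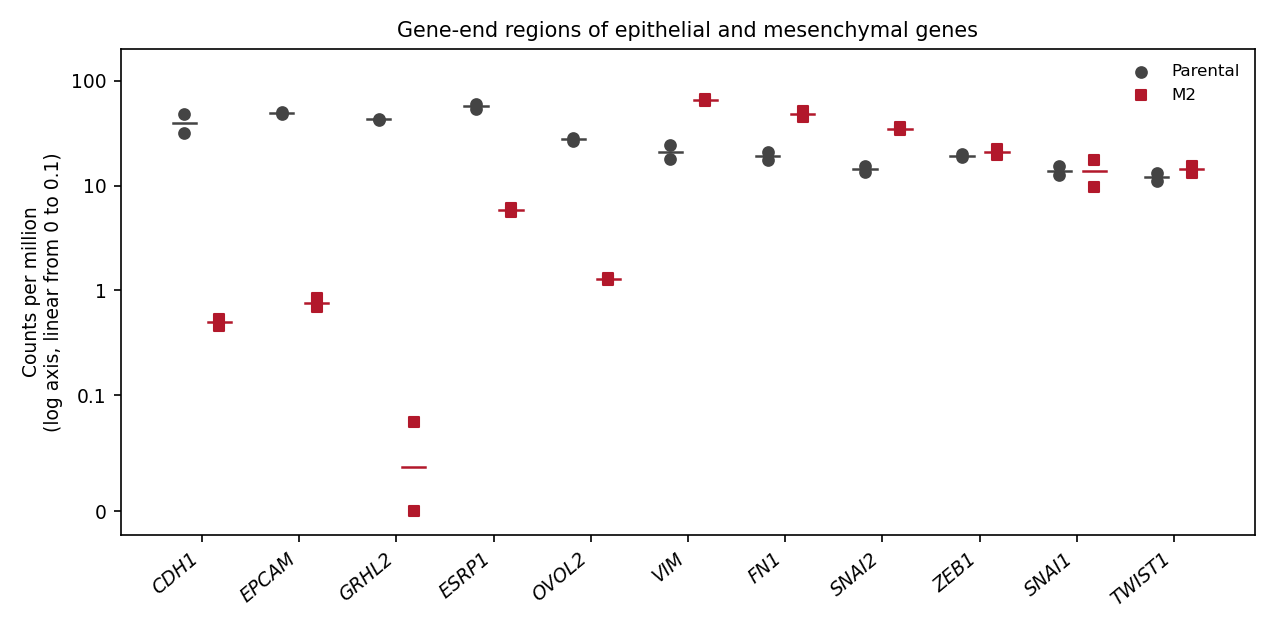
CPM (log axis, linear from 0 to 0.1) at gene-end regions of 11 epithelial and mesenchymal genes in the 2 Parental libraries (circles) and the 2 M2 libraries (squares), with a line at each mean. M2 lies below Parental at CDH1, EPCAM, GRHL2, ESRP1 and OVOL2 and above it at VIM, FN1 and SNAI2, and the groups overlap at ZEB1 and SNAI1 and touch at TWIST1.

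Of 65771 regions tested, 44093 (67%) differed between M2 and Parental at an adjusted p under 0.05. They comprised 21144 regions (32.1%) that were higher in M2 and 22949 (34.9%) that were lower. To set chromosome-scale shifts apart from local changes, the median log2 difference of each 10 Mb window was taken out of the M2 values and the test was repeated. A local opening or closing is a region that was called with the same sign before and after this removal. The repeated test called 40008 regions (60.8%), and 34725 regions (52.8%) met the rule for a local change: 15323 (23.3%) opened in M2 and 19402 (29.5%) closed. A further 5794 higher and 3359 lower regions were called only before the removal, and 3118 and 1950 only after it. The medians of the 10 Mb windows accounted for little of the spread. The SD of log2 differences over regions was 2.34 before the removal and 2.27 after it, and 6.18% of the variance was removed. Shifts of stretches shorter than a window can stay among the local changes. Of 2389 windows of 1 Mb with at least 8 regions, 171 stood at a log2 difference of at least 2 from 0 in M2.

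Local closings were deeper than local openings. The closed regions had a median local log2 change of -2.95, a median level of 12.3 CPM in Parental and 1.22 CPM in M2, and 69.1% of them changed at least 4-fold (a log2 change of 2). The opened regions had a median local log2 change of 1.86, a median level of 4.05 CPM in Parental and 19.7 CPM in M2, and 47.0% changed by that much. Of the closings, 8.61% were at gene ends, against 17.4% of the openings. Of the 12333 gene-end regions, 21.6% opened and 13.5% closed, and of the 53438 other regions 23.7% opened and 33.2% closed.

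Long stretches of chromosomes had shifted medians in M2, although not all of their regions moved the same way. Among 302 windows of 10 Mb with at least 20 regions, 69 (22.8%) were shifted up and 59 (19.5%) down, which means a median log2 difference of at least 0.5 from that of all regions with the same sign in all 4 pairs of an M2 and a Parental library. The difference was 1 or more in 6 windows that were up and 16 that were down. Neighbouring shifted windows formed 19 blocks that were up (47 windows) and 14 that were down (41 windows). Across the blocks, 63.8% to 86.6% of the regions lay on the side of the block median. The total count of a window differed in 247 of 302 windows (81.8%, edgeR quasi-likelihood test, adjusted p under 0.05), and these included all 128 shifted windows with the same sign.

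Blocks of loss lay on chromosomes 9, 11, 13, 17 and X, among others. On chromosome 9, the first 20 Mb had a median log2 difference of -1.67 over 424 regions, and in the window from 10 to 20 Mb it was -2.17, with 93.3% of regions on the same side. Chromosome 13 was lower along most of its length, with a chromosome median of -0.691. Its block from 50 to 120 Mb stood at -0.917 over 941 regions, with 75.7% on the same side. Chromosome 11 from 20 to 40 Mb stood at -1.11, and the first 20 Mb of chromosome 17 at -0.815, with 86.3% of regions on the same side. On this part of chromosome 11 the median of the windows was -0.752 in E and 0.0912 in M1. On that of chromosome 17 it was -0.368 in EM1, -0.341 in EM3 and -0.0364 in M1. On the X chromosome, 64 regions from 80 to 100 Mb stood at -2.93 and 457 regions from 130 to 160 Mb at -0.85. From 80 to 100 Mb, 75.0% of regions lay on the same side, and the 10 gene-end regions stood at -0.707. The median of the windows there was also low in M1 (-1.09) and EM2 (-1.10).

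Fewer gains than losses reached a log2 difference of 1. The first 30 Mb of the X chromosome stood at 1.37 over 331 regions, the first 20 Mb of chromosome 7 at 0.96 over 418 regions, chromosome 19 from 30 to 60 Mb at 0.829 over 841 regions, and chromosome 12 from 100 to 140 Mb at 0.823 over 734 regions. Whole chromosomes 19 and 22 had medians of 0.606 and 0.551, and the M2 libraries themselves differed by 0.123 and 0.181 there. The losses held at gene ends, and most gains did not reach the limit there. Relative to the median of all gene ends, the gene-end regions alone stood at -0.5 or lower in 40 of the 50 downward windows that had enough of them, and at 0.5 or higher in 16 of the 68 upward windows, although all 68 were above 0.

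Shifts were compared with the spread between libraries. Over the 302 windows, the SD of the window medians was 0.63 for M2 minus Parental, 0.103 between the M2 libraries and 0.0819 between the Parental libraries, and the largest difference within a group was 0.441, close to the limit of 0.5. Measured against the same Parental libraries, 128 windows stood at least 0.5 from 0 in M2, 22 in M1, 16 in E, 9 in EM2, 2 in EM1 and 2 in EM3. ATAC-seq counts cannot tell a change in DNA copies from a change in accessibility of a whole domain.

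**Figure D2:**
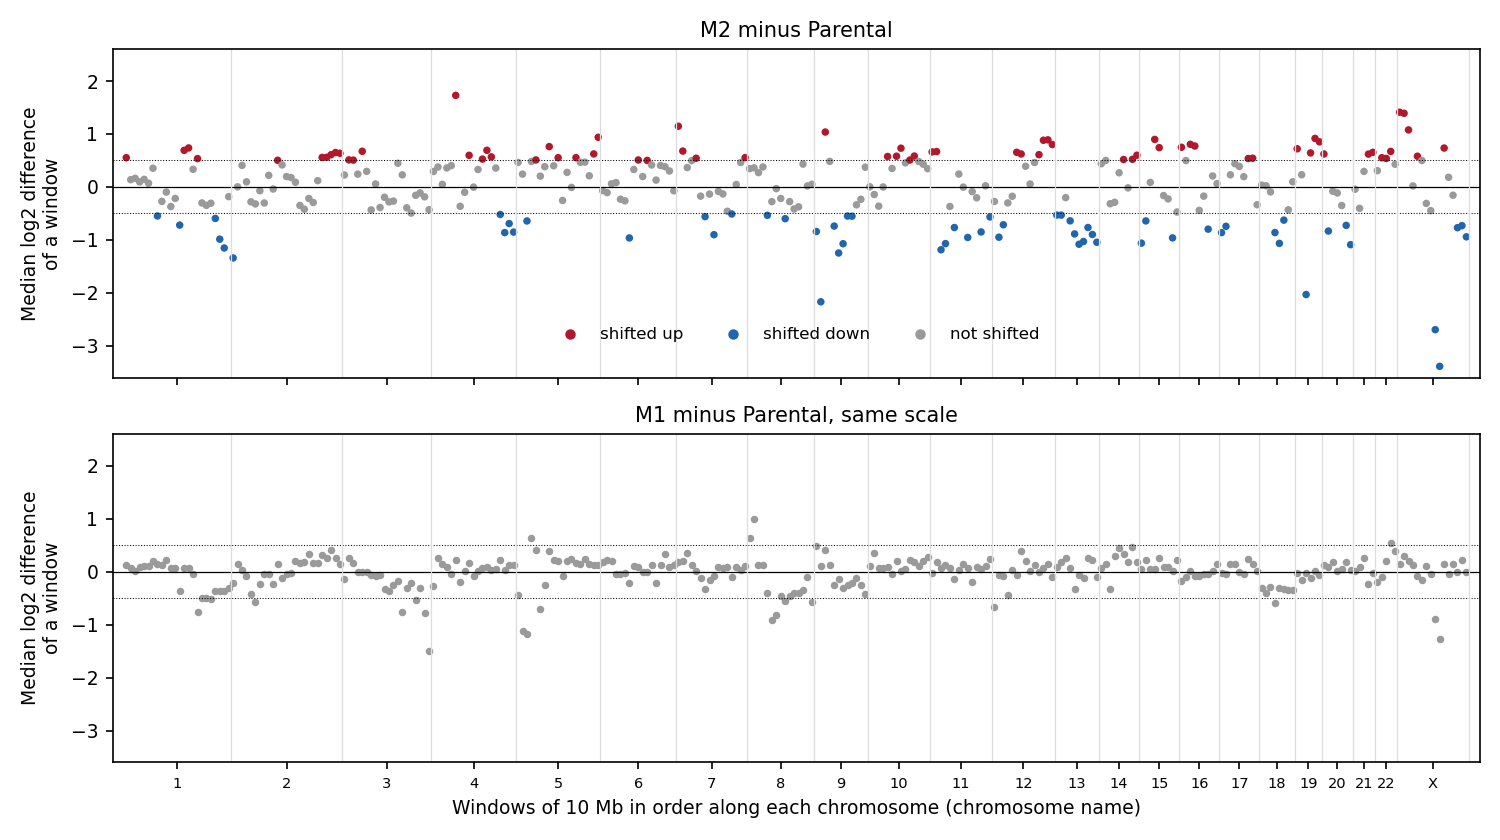
Median log2 difference from Parental of each of 302 windows of 10 Mb, in chromosome order, for M2 (top) and M1 (bottom), with dotted lines at 0.5 and -0.5. In M2, 69 windows (red) lie above and 59 (blue) below, among them the run along chromosome 13 and the low windows of chromosomes 9 and X.

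Regions at genes of epithelial adhesion and epithelial transcription closed in M2 more often than they opened. Each region was given to the closest protein-coding gene, by distance to either gene end, up to 50 kb. Of 61 regions at genes of epithelial adhesion and tight junctions, 33 closed and 3 opened, with a median local log2 change of -1.22, against 29.5% closed, 23.3% opened and a median of 0.01 over all tested regions. Of 104 regions at epithelial transcription and splicing factors, 59 closed and 10 opened (median -1.35). CDH1 closed at 8 of its 10 regions and opened at none, with summed levels of 358 and 312 CPM in Parental against 27.1 and 25.7 CPM in M2. At EPCAM 3 of 7 regions closed and 1 opened, and at GRHL2 6 of 13 closed. P-cadherin (CDH3), the neighbour of CDH1 on chromosome 16, closed at 6 of 8 regions. Not all members closed: CLDN1 opened at 2 of 6 regions and closed at 1, and PARD6B had no local change at 5 regions. GRHL1 opened at 1 of 5 regions and closed at 0, and GRHL3 opened at 2 of 9 and closed at 3. CDH3 and the other genes given here by their number of regions were chosen after their values were seen.

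At some single gene ends the closings were nearly complete. F11R, MARVELD2, TFAP2A and ELF3 were named for the smallest p of their lists, which favours large changes, as were regions of the lists below. Over all gene ends of a list, the median local log2 change was -5.48 for epithelial adhesion and tight junctions (17 regions). For epithelial transcription and splicing factors it was -2.72 (14 regions). F11R, the junctional adhesion molecule A gene, held 72.7 and 81.7 CPM in Parental and 1.60 and 1.68 CPM in M2 (local log2 change -5.86, adjusted p = 1.7e-09, edgeR). MARVELD2, which encodes tricellulin, held 30.8 and 23.9 CPM in Parental and 0.344 and 0.229 CPM in M2 (local log2 change -6.93). TFAP2A, an epithelial AP-2 factor, held 59.4 and 50.7 CPM in Parental and 0.458 CPM in each M2 library (local log2 change -6.76). None of these levels came near the other group, and over all regions tested the library values of M2 and Parental did not overlap in 84.4%. ELF3, an epithelial ETS factor, fell from 69.5 and 57.9 CPM to 1.83 and 1.15 CPM (local log2 change -5.14). ESRP1, a splicing regulator of epithelial isoforms, fell from 54.2 and 60.6 CPM to 5.61 and 6.11 CPM (local log2 change -2.99), and OVOL2 from 28.7 and 26.9 CPM to 1.26 and 1.30 CPM (local log2 change -3.58). M2 lay below both Parental libraries at each of these gene ends.

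Desmosomes are the spot junctions that anchor keratin filaments. Of 108 regions at desmosome and hemidesmosome genes, 47 closed (43.5%, against 29.5% of all regions) and 11 opened (median local log2 change -0.442). PKP2, a plaque protein, fell from 58.5 and 65.8 CPM to 0.229 and 0.688 CPM at its gene end (local log2 change -6.62), and DSC3, a desmosomal cadherin, from 44.4 and 46.6 CPM to 0.802 and 0.611 CPM (local log2 change -5.16). DSC3 lies in a shifted window of chromosome 18, and its change without the window removal was -6.02. All 5 regions of DSP, the desmoplakin gene, closed. Among other members, DSG2 closed at 1 of 5 regions and PERP at 1 of 6, and LAMA3 opened at 3 of 7 and closed at 2. Keratins had 15 of 43 regions closed (34.9%, against 29.5% of all regions) and 3 opened. Their median local log2 change was -0.706, and without the window removal the median was -0.07. KRT5, the basal keratin, fell from 21.9 and 21.6 CPM to 0.344 and 0.458 CPM at its gene end (local log2 change -6.32).

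Membrane serine proteases and their inhibitors, which are bound to epithelial surfaces, had 13 of 27 regions closed (48.1%) and 1 opened (3.7%, median -0.783). Over all regions, 29.5% closed and 23.3% opened. SPINT1, an inhibitor of matriptase, fell from 33.6 and 31.1 CPM to 0.573 and 0.917 CPM (local log2 change -5.44). ST14, matriptase itself, fell from 33.9 and 27.2 CPM to 1.49 and 1.07 CPM at its gene end (local log2 change -4.02). Both groups of libraries were far apart at each.

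The promoters of genes that closed or opened locally differed in their letters. The RefSeq table gives 34941 stretches of 250 bases before a gene start on GRCh38.p14, and 12770 of them overlap a tested region by at least 125 bases. The E-box CAGGTG was searched on both strands. It was present in 28.2% of 1290 promoters with a local closing and in 10.8% of 2986 with a local opening. Its share was 16.2% of 3049 without a call, 15.5% of the 12770 with a region and 17.5% of all 34941. CAGGTG is the core that ZEB and SNAI repressors are known to bind. The TATA box TATAAA was present in 6.98% of closing, 4.05% of opening and 4.82% of uncalled promoters. Its share was 4.41% of the 12770 promoters with a region and 10.8% of all promoters. The grainyhead-type motif AACNGGTT was present in 2.09% of closing, 1.14% of opening and 1.15% of uncalled promoters, 1.25% of those with a region and 1.49% of all. For the AP-1-type motif TGANTCA these shares were 8.91%, 7.43%, 5.25%, 5.64% and 6.59%. A promoter can hold several of these motifs, and base composition differed too: the median promoter held 16 CpG dinucleotides with a local closing, 22 with a local opening and 22 without a call. These are descriptions of letters, without a test.

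The 250 bases before the start of 8 genes are shown, because the first 7 of these promoters closed in M2 and the last had counts in M2 and none in Parental. They were chosen after their values were seen, so the number of them with a motif is not a share. They are from RefSeq, GRCh38.p14, written 5′ to 3′ on the strand of the gene, with E-boxes (CAGGTG or its complement CACCTG) and TATAAA in capitals. MST1R encodes the receptor of macrophage-stimulating protein (chr3:49903874-49904123, minus strand). ELF3 lies at chr1:202010337-202010586 (plus strand), KRT5 at chr12:52520395-52520644 (minus strand), EPGN, the EGF-family ligand epigen, at chr4:74308220-74308469 (plus strand) and STK11, the kinase LKB1, at chr19:1205528-1205777 (plus strand). MARVELD2 (chr5:69414866-69415115, plus strand) and DSC3 (chr18:31042743-31042992, minus strand) hold none of the 4 motifs, and TFAP2A (chr6:10419660-10419909, minus strand) holds a TATA box.
MST1R: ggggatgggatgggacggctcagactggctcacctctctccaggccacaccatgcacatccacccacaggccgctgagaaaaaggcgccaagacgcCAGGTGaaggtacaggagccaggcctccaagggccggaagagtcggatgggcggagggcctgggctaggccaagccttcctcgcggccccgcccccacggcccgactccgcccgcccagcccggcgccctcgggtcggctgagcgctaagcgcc
ELF3: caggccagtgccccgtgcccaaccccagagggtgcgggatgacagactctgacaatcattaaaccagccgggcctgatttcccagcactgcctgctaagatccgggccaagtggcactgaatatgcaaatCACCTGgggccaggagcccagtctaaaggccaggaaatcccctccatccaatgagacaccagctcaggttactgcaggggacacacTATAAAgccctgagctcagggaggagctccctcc
KRT5: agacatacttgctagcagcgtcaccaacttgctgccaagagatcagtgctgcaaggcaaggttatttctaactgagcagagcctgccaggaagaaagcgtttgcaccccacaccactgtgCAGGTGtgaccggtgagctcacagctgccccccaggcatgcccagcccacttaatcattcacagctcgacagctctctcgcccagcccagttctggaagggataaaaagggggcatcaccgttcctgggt
EPGN: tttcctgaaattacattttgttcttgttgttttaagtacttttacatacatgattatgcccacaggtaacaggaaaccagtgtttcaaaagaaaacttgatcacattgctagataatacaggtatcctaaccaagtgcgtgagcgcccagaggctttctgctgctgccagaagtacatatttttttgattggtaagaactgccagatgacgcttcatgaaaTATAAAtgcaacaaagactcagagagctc
MARVELD2: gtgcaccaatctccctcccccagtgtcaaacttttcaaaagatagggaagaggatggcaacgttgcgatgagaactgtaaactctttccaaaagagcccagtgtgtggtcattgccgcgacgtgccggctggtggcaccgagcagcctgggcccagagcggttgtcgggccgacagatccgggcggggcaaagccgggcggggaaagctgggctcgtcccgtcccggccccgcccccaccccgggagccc
DSC3: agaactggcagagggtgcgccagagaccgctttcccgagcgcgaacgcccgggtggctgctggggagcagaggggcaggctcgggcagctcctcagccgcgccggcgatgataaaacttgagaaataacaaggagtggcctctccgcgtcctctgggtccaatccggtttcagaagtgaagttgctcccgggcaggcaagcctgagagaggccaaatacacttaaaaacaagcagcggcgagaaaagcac
TFAP2A: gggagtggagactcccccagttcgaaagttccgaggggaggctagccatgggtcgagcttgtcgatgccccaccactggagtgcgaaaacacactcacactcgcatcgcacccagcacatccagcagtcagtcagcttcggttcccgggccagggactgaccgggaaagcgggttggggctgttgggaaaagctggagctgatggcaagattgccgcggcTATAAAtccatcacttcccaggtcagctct
STK11: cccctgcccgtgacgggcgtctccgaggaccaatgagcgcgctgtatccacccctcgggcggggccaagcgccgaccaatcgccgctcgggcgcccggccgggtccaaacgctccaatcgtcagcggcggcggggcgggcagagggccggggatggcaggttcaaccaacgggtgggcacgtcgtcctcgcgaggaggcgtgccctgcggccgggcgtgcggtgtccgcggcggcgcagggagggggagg

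The E-box of MST1R begins 154 bases before the start, that of ELF3 120 bases and that of KRT5 130 bases before it. The TATA box of ELF3 begins 34 bases and that of EPGN 29 bases before the start. STK11 held 37 CpG dinucleotides and none of the 4 motifs, and EPGN held 3. At the MST1R promoter the region held 28.7 and 35.0 CPM in Parental and 0 and 0.0764 CPM in M2, or 1 count against 729 (697-fold lower, 95% exact binomial interval 125 to 27600). EPGN and STK11 had no counts at all on one side and are described with the regions without counts.

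Mesenchymal effector genes opened more often than they closed. Of 151 regions, 57 opened (37.7%) and 29 closed (19.2%), against 23.3% and 29.5% of all regions. The median local log2 change was 0.502. Housekeeping genes leaned to openings too, with 31.8% of regions opened and 9.09% closed (median 0.278). At VIM, 5 of 8 regions opened and 2 closed. The largest change was at a region 735 bp beyond the gene (17238328 to 17239067 on chromosome 10), which held 0.725 and 0.679 CPM in Parental and 44.9 and 45.3 CPM in M2 (local log2 change 6.14, adjusted p = 2e-07, edgeR). This change was larger than that at the VIM gene end (1.78). FN1, which encodes fibronectin, rose from 21.0 and 17.6 CPM to 44.8 and 51.3 CPM at its gene end. Its log2 change was 1.32 and the local change 0.77 (adjusted p = 0.038), since its window was itself shifted by 0.55. The local change of FN1 was 0.65 without M2 replicate 2, 0.83 without Parental replicate 1 and 0.76 without Parental replicate 2, and none of these passed.

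PDGFRB, a growth factor receptor of mesenchymal cells, opened at 2 of 2 regions, and THY1 at 3 of 4. Members also went the other way. CDH11, a mesenchymal cadherin, closed at 4 of 5 regions, with summed levels of 14.3 and 13.2 CPM in Parental and 0.802 and 1.15 CPM in M2, and FBN1, fibrillin, closed at 5 of 9. A region 12850 bp from ITGA5, the fibronectin receptor chain, fell from 33.2 and 30.0 CPM to 3.09 and 1.76 CPM (local log2 change -4.39), while 3 other regions of that gene opened.

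Of the 83 regions nearest to transcription factors that drive the transition, 26 opened (31.3%) and 24 closed (28.9%), against 23.3% and 29.5% of all regions, with a median local log2 change of 0.217. SNAI2, which encodes Slug, rose from 13.4 and 15.4 CPM to 36.0 and 33.7 CPM at its gene end (log2 change 1.27, SE 0.26, adjusted p = 0.00075, local change 1.82). ZEB1 held 18.6 and 19.9 CPM in Parental and 19.4 and 22.2 CPM in M2 (log2 difference 0.12, SE 0.17, adjusted p = 0.56), and the groups overlapped. SNAI1 held 12.5 and 15.2 CPM in Parental and 9.73 and 17.6 CPM in M2 (log2 difference -0.01, SE 0.30, adjusted p = 0.98). TWIST1 held 11.1 and 13.2 CPM in Parental and 13.2 and 15.5 CPM in M2 (log2 difference 0.25, SE 0.22, adjusted p = 0.34), and did not pass. Away from gene ends, a region 15734 bp from SOX9 fell from 38.1 and 27.7 CPM to 0.229 and 0.306 CPM (local log2 change -7.36). TP63, CDH2 and ZEB2 had no tested region within 1 kb of a gene end.

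Signalling genes moved in both directions. For the TGF-beta and BMP pathway, whose ligands can drive the transition, 36 of 164 regions opened (22%) and 52 closed (31.7%), shares near the 23.3% and 29.5% of all regions (median 0.01). A region 2133 bp from the ligand gene TGFB1 fell from 21.0 and 20.6 CPM to 2.06 and 2.14 CPM (local log2 change -4.20), and one within LTBP2, a latent TGF-beta binding protein, from 52.7 and 60.0 CPM to 6.64 and 7.49 CPM (local log2 change -3.49). Among receptors, TGFBR3 opened at 5 of 6 regions, and the inhibitory SMAD7 closed at 4 of 8. For the Wnt pathway, 27 of 148 regions opened (18.2%) and 56 closed (37.8%, median -0.376). All 5 regions of SFRP1, a secreted Wnt antagonist, closed, with summed levels of 123 and 139 CPM in Parental and 4.81 and 4.05 CPM in M2. A region within TCF7L2, a transcription factor of the pathway, fell from 49.3 and 65.7 CPM to 0.229 and 0.535 CPM (local log2 change -7.55). ROR1, a Wnt receptor, opened at 4 of 5 regions.

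Cytokine and NF-kB genes had 27 of 82 regions open (32.9%) and 14 closed (17.1%), against 23.3% and 29.5% of all regions (median 0.322). IL6 opened at 2 of 3 regions and BIRC3 at 5 of 6. CXCL1, a neutrophil chemokine, had 4 of 7 closed and none open, and a region 1259 bp beyond it fell from 22.7 and 20.8 CPM to 0.344 and 0.229 CPM (local log2 change -6.13). Collagens and matrix proteases had 27 of 121 regions open (22.3%) and 31 closed (25.6%), shares near those of all regions (median -0.05). A region within COL4A2, a basement membrane collagen, fell from 29.6 and 33.6 CPM to 0.229 and 0 CPM, or 2 counts against 722 (345-fold lower, 95% exact binomial interval 95.2 to 2860), on the lowered part of chromosome 13. MMP9, a gelatinase, fell from 19.4 and 21.5 CPM to 0.573 and 0.458 CPM at a region 3623 bp from the gene (local log2 change -4.95). ADAM12, a mesenchymal protease, opened at 5 of 8 regions.

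HOX genes, which mark position along the body axis, had 11 of 25 regions open (44.0%) and 3 closed (12.0%, median 0.416). A region 68 bp beyond HOXA4 held 0 and 0.0848 CPM in Parental and 18.9 and 26.3 CPM in M2, or 1 count against 509 (532-fold higher, 95% exact binomial interval 95.1 to 21100). Within HOXA3, in contrast, a region fell from 13.5 and 12.4 CPM to 0.458 CPM in each M2 library (local log2 change -5.13). Cell cycle and growth control genes had 15 of 70 regions open (21.4%) and 25 closed (35.7%), against 23.3% and 29.5% of all regions (median 0.125). A region within ERBB2, which encodes HER2, fell from 21.8 and 18.6 CPM to 0.229 and 0.382 CPM (local log2 change -6.35), and one 41246 bp from the cyclin gene CCND1 from 23.4 and 19.9 CPM to 0.344 and 0.229 CPM (local log2 change -6.46).

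Markers of other cell types were read in the same way. Endothelial genes had 14 of 28 regions open and 4 closed (median 1.56), with summed levels of 192 and 185 CPM in Parental and 411 and 355 CPM in M2. TEK, the angiopoietin receptor, gave 7 of these openings. It lies in a stretch of chromosome 9 that was empty or nearly so in Parental, and where M1 and EM2 had counts as M2 did. TIE1, its sister receptor, closed at 3 of 3 regions. PECAM1 rose from 1.81 and 2.04 CPM to 35.2 and 25.8 CPM at a region within the gene (local log2 change 3.45). No endothelial gene had a tested gene-end region, so their promoters were not read. Blood cell genes had 2 of 24 regions open and 6 closed, with summed levels of 373 and 419 CPM in Parental and 410 and 371 CPM in M2. Their part in the other results was not tested. Of housekeeping genes, 14 of 44 regions opened (31.8%) and 4 closed (9.09%, median 0.278), against the same 23.3% and 29.5% of all regions.

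**Figure D3:**
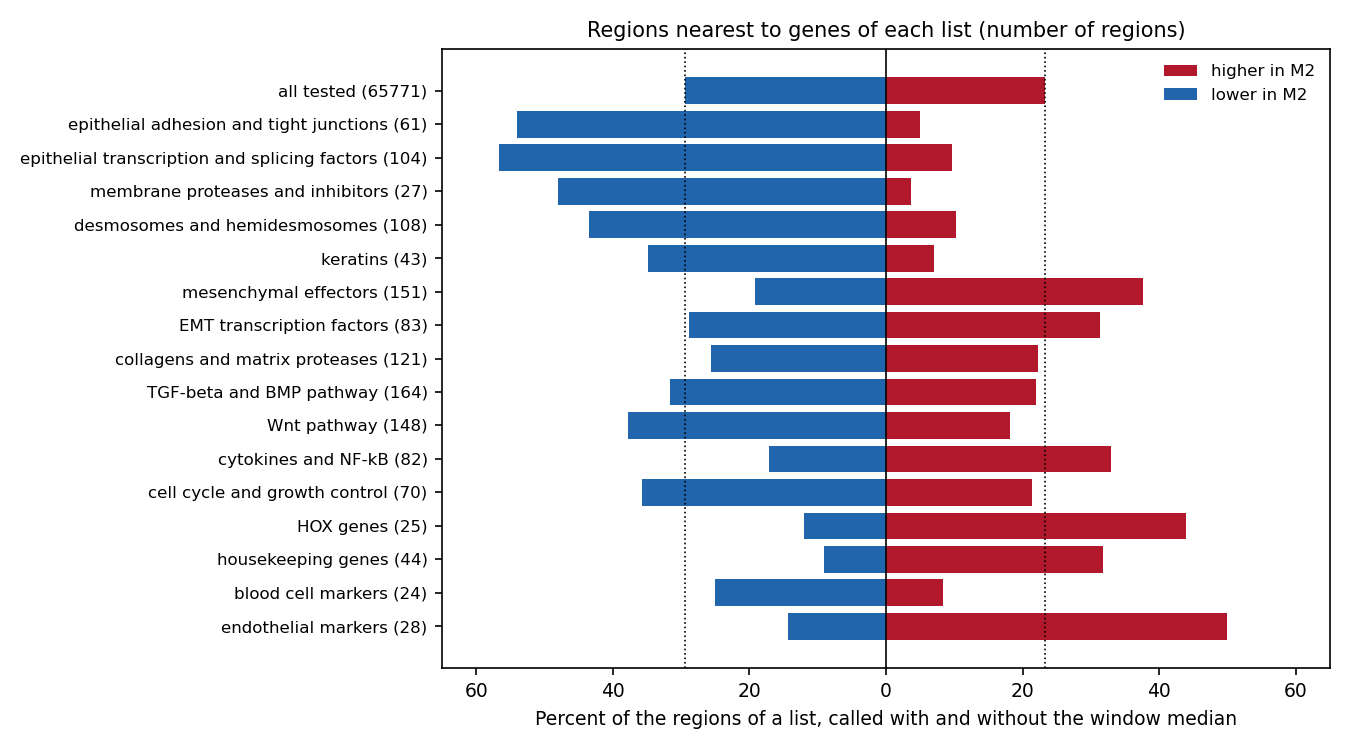
Percent of the regions of each gene list that opened (red, right) or closed (blue, left) locally in M2, with the number of regions in brackets and dotted lines at the 23.3% and 29.5% of all tested regions. The 5 epithelial lists at the top lean to closings, and mesenchymal effectors, cytokines, HOX, housekeeping and endothelial genes lean to openings.

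Among regions within 10 kb of a gene end whose mean log2 level over all 14 libraries was above the median region's, the largest local openings were at ESYT2, BNC2, SYS1, TMA7B, TSC22D3 and GYPC. A region at HOXA4, open mainly in M2, and one at VIM (local log2 change 6.14) opened more but had a lower mean over the libraries. The VIM region was open in M1 too, at 21.8 and 22.3 CPM. ESYT2, which tethers the endoplasmic reticulum to the plasma membrane, rose from 2.00 and 1.70 CPM to 107 and 83.1 CPM within the gene (local log2 change 5.14). TSC22D3, the glucocorticoid-induced leucine zipper, rose from 2.54 and 2.55 CPM to 99.5 and 72.5 CPM beside its gene end (local log2 change 4.35). GYPC, a red cell membrane glycoprotein, rose from 6.98 and 5.09 CPM to 141 and 124 CPM (local log2 change 4.27). The libraries of the 2 groups did not overlap at these regions because the rule that named them asked for it. Over all regions tested, 84.4% did not overlap. BNC2, a zinc finger factor of mesenchymal tissue, opened in a window that was shifted down. Its region rose from 3.99 and 3.05 CPM to 16.5 and 18.6 CPM, a log2 change of 2.32. This rise was called before the window removal too (adjusted p = 0.00029, edgeR). The window stood at -2.18, and the local change was 4.50. M1 held more than M2 at this region, with 46.6 and 24.8 CPM.

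At 206 regions M2 had no counts in either library while Parental had at least 20 together. They lay on 23 chromosomes, and 192 of them stood alone, which means that both neighbouring regions had at least 1 count in M2. Such neighbours can be nearly empty: those of the region at 38551725 on chromosome 18 had 1 and 6 counts. Only 9 (4.37%) were at gene ends, against 18.8% of all regions. The median region had 164 Parental counts. Against a floor of 3 counts over the group, M2 was at least 11.7-fold to at least 544-fold lower. Intervals and floors cover counting error only.

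The strongest was within TBCD, which encodes a tubulin folding cofactor, at 82787101 to 82787704 on chromosome 17. It had 791 and 784 counts in Parental and 0 in both M2 libraries, so M2 was at least 544-fold lower, and M1 had 253 and 589 counts. RAB38, a small GTPase of melanosome transport, had 330 and 428 counts at its gene end in Parental, so M2 was at least 262-fold lower. Regions without a gene end nearby included chromosome 18 at 52149930 to 52150436, with 546 and 573 counts in Parental. There M1 was nearly empty too, with 5 and 3 counts. EPGN, whose promoter is printed above, had 163 and 204 counts in Parental (at least 127-fold lower in M2). A region within EHF, an epithelial ETS factor, had 183 and 166 counts (at least 121-fold lower). Of the 12 regions given to EHF, 5 closed and 3 opened. Their summed levels were 399 and 382 CPM in Parental and 272 and 263 CPM in M2. EPGN and EHF were chosen after their values were seen.

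Runs of neighbouring regions without counts in M2 were few. At least 3 consecutive regions were empty in 3 places, which held 10 regions. The longest spans 286 kb of the X chromosome (7159184 to 7445449) and includes STS, the steroid sulfatase gene, with 539 and 553 Parental counts in 4 regions. Its neighbours on either side had 305 and 255 counts in M2. Near NEGR1, a neuronal adhesion molecule, 3 regions of chromosome 1 (72241471 to 72285320) had 764 and 781 Parental counts. Within GPC6, a glypican, 3 regions of chromosome 13 (93771875 to 93847537) had 121 and 160 Parental counts. All 3 runs had counts in every library of the other clones, and in M1 the X run had 139 and 188 counts.

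At 62 regions Parental had no counts while M2 had at least 20. These lay on 18 chromosomes, 48 stood alone by the same rule, and 6 (9.68%) were at gene ends. Among the 48, the region at 26776746 on chromosome 9 had neighbours with 1 Parental count each, in a nearly empty stretch. M2 was at least 7.72-fold to at least 701-fold higher. Of the regions that stood alone, the strongest was on chromosome 5 (173452022 to 173452473, no gene end within 50 kb), with 345 and 571 counts in M2 and 107 and 97 in M1. One 36134 bp from ETS2 on chromosome 21 (38768734 to 38769049) had 140 and 406 counts in M2 and 0 in both M1 libraries.

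Some of these regions are gene ends. At ERAP1 and LNPEP, neighbouring genes of peptide trimming, 2 adjoining regions of chromosome 5 (96934735 to 96935578 and 96935717 to 96936168) had 844 and 1335 and 563 and 866 counts in M2 (at least 701-fold and 460-fold higher). In M1, EM1, EM2 and EM3 these regions had 0 or 1 count in each library, and E had 187 and 18 counts at the first and 160 and 6 at the other. STK11, whose promoter is printed above, had 301 and 557 counts at its gene end (1205454 to 1205878 on chromosome 19, at least 276-fold higher) and 170 and 366 counts within the gene. Both STK11 regions had 0 counts in M1, EM1, EM2 and EM3, and the gene end had 73 and 0 counts in E. CAAP1 on chromosome 9 had 548 and 848 counts in M2, 146 and 269 in M1, 259 and 255 in EM2 and 138 and 9 in E. These 3 loci have a neighbour that is also empty in Parental and were chosen after their values were seen.

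Both runs of regions without Parental counts lay on chromosome 9. From 21591630 to 23826627, 5 regions over 2235 kb, up to ELAVL2, had 750 and 1113 counts in M2, none in Parental, M1, EM1, EM2 or EM3, and 134 and 14 in E. From 27865042 to 28235231, 3 regions within LINGO2 had 189 and 277 counts in M2, 284 and 355 in M1, 238 and 224 in EM2, none in Parental, EM1 or EM3, and 19 and 2 in E. With up to 2 counts allowed over the Parental libraries in each region, a run from 26956178 to 28365621 held 15 regions with 1 and 13 Parental counts in all and 1119 and 1752 M2 counts. It includes IFT74, TEK and LINGO2. Counts alone cannot tell closed chromatin from DNA that is not there.

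The other clones differed at both sets. At the 206 regions empty in M2, M1 had 40.4% and 38.6% of the Parental level (summed CPM), EM1 101% and 108%, E 67.8% and 86.5%, and only 7 of the regions were empty in M1. At the 62 regions empty in Parental, M1 had 14.4% and 12.1% of the M2 level, EM2 8.38% and 7.2%, and EM1 and EM3 between 0.399% and 0.584%. The libraries of E stood at 22.8% in replicate 1 (21.7 to 23.9) and 2.56% in replicate 2 (2.23 to 2.93), with 95% exact Poisson intervals in brackets. Both libraries carry the same label.

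**Figure D4:**
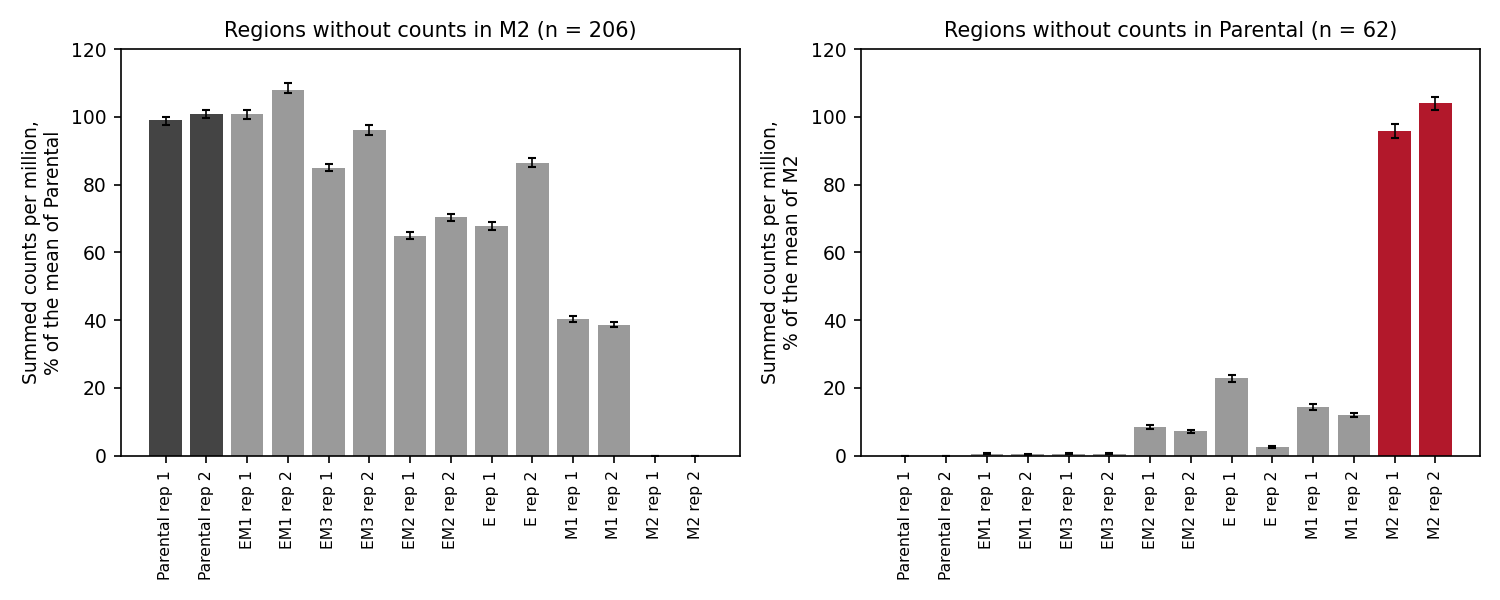
Summed CPM at the 206 regions without counts in M2, as percent of the Parental mean (left), and at the 62 regions without counts in Parental, as percent of the M2 mean (right), in each library, with 95% exact Poisson intervals. M1 has about 40% of the Parental level on the left, and E replicate 1 has 22.8% of the M2 level on the right against 2.56% in E replicate 2.

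M2 was also set against M1 directly, and 37022 regions (56.3%) differed (edgeR quasi-likelihood test, adjusted p under 0.05). At CDH1, M1 had a mean of 2.52 CPM and M2 was lower still (log2 difference M2 minus M1 -2.29, adjusted p = 0.0014, edgeR). EPCAM was lower in M2 than in M1 by a log2 difference of -3.61 and TFAP2A by -6.05. ESRP1 did not pass between them (0.28, adjusted p = 0.27, edgeR), with a mean of 4.89 CPM in M1. VIM did not pass either at its gene end (0.30, adjusted p = 0.37, edgeR), with 53.2 CPM in M1. SNAI2 was higher in M2 (1.93, adjusted p = 5.9e-05, edgeR), and M1 had a mean of 9.11 CPM there.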

How the data were processed

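ATAC-seq of genomic DNA from 14 libraries (7 groups of 2) was used. The deposited table holds raw counts per consensus region, on hg38 per the submitters' processing notes, which list MACS2 2.1.1, featureCounts, Bowtie2 2.2.6, deepTools, Picard, cutadapt 1.9.1 and bcl2fastq 2.20.0.422 without roles or parameters. The labels give no rule for merging peaks into consensus regions.

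Counts were tested with edgeR 4.0.16 (R 4.3.3, limma 3.58.1): TMM scaling, a minimum count of 10 (3 regions removed), all 7 group means in a quasi-likelihood fit, and Benjamini-Hochberg adjustment over 65771 regions at 0.05. The biological coefficient of variation was 0.208. The approximate SE is the size of the log2 change over the square root of F. For local changes, the median of each 10 Mb window with at least 20 regions (otherwise of the chromosome) entered the M2 offsets. Levels are CPM of the TMM-scaled library totals. The fold floors and the percent levels at regions without counts use the raw totals. The gene table has no strand, so regions were given to gene ends, and 66.4% had one within 50 kb.

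Named regions are the 6 largest local openings and closings near genes, the 2 with the smallest p of each gene list, marker gene ends, and the 6 strongest regions without counts on either side, with all runs. For the largest openings and closings, the rule also asked that library values of M2 and Parental not overlap. Some regions that this rule names are not reported here. The members and lists were chosen with earlier results of these data known. On simulated counts for 65770 regions with 200 changed, the local test recovered 4.48% of 1.5-fold, 10.4% of 2-fold and 95.5% of 4-fold changes, with 2 false calls of 75. On a simulated chromosome lowered as a whole, 21% of 1583 regions were called without the window removal and 0% with it. In the data 44093 regions were called, far more than the 200 changed in the simulation. The simulation therefore cannot show how well the removal separates shifts from local changes here. Alternatives included DESeq2 1.42.0, other scalings, window sizes and filters, and leaving out libraries.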

Additional observations from a re-analysis of the deposited data

Results flagged for a closer look

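E replicate 1 had 1709 counts at the 62 regions without Parental counts, and E replicate 2 had 212. These regions were chosen from M2 and Parental alone. E replicate 1 stood at 22.8% of the M2 level and E replicate 2 at 2.56%. The source of the counts was not tested.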

How the results depend on the processing

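The counts of called regions stayed within 1.5 times under every alternative run. Without 1 library of M2 or Parental at a time, 16932 to 19635 regions were higher and 20423 to 21716 lower, and 14529 to 16970 and 18663 to 20295 after the window removal. Shifted windows numbered 59 to 70 up and 54 to 63 down. Other window sizes gave other numbers by construction: 30 up and 25 down with 20 Mb, 126 and 125 with 5 Mb, and 2 and 2 whole chromosomes. A limit of 1 left 6 up and 16 down, and gene-end medians gave 19 up and 51 down. Regions without counts in M2 numbered 1143 with up to 2 counts allowed and 203 to 1021 with a library left out (528 without M2 replicate 1, 1021 without M2 replicate 2), and their runs 22 and 3 to 7. Regions without counts in Parental numbered 300 and 60 to 203 (203 without Parental replicate 1, 193 without Parental replicate 2). Their runs numbered 1 to 3 with a library left out, 1 of them without M2 replicate 1, and 1 with at least 50 counts asked of M2.

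Differences near 0 changed sign. SNAI1 was 0.01 with DESeq2's Wald test and with its size factors, 0.13 with loess offsets, and -0.52 to 0.34 with a library left out (0.34 without M2 replicate 1, 0.11 without Parental replicate 2), and its local difference was -0.10 to 0.71 (-0.10 without M2 replicate 2). The local difference of ZEB1 was -0.00 with loess offsets and -0.18 with whole chromosomes, and that of TWIST1 was 0.22 with whole chromosomes. The cause was not tested.

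Replicate numbers are shared between groups, but the labels give no shared batch. Same-numbered M2 and Parental libraries deviated together with a correlation of 0.108, and over all pairs of groups the correlation ran from 0.0232 to 0.59 (EM1 with EM3). With the replicate number as a block, 23177 regions were higher and 24461 lower, 20865 and 22922 after the window removal, 69 and 59 windows were shifted, 259 window totals differed, and 41447 regions differed between M2 and M1.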

Other observations

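Windows of 1 Mb, chosen after the data were seen, held steeper changes than the 10 Mb windows. Of 2389 windows with at least 8 regions, 40 were higher in M2 by a log2 difference of 2 or more and 131 were lower, and the largest difference between the M2 libraries was 1.03. Against the same Parental libraries, 171 windows passed this limit in M2, 35 in M1, 8 in EM2, 3 in E, and 0 in EM1 and EM3. The lowest was a cluster of zinc finger genes on chromosome 19 (23 to 24 Mb, with ZNF681, ZNF675 and ZNF91), where 20 regions had a median of -5.31 and all lay on the same side. Chromosome 2 from 1 to 2 Mb, with PXDN and MYT1L, stood at -5.22 over 21 regions.

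Chromosome 8 from 127 to 128 Mb, around MYC, a growth-driving transcription factor gene, was higher. Of its 85 regions, 74 opened and 3 closed by the local rule, which takes out only the median of the 10 Mb window. The median region held 6.98 and 7.13 CPM in Parental and 92.4 and 105 CPM in M2, against 5.42 and 5.22 CPM in M1 and 33.4 and 9.99 CPM in E. At the MYC gene end M2 held 779 and 971 CPM and Parental 88.2 and 86.8 CPM (log2 change 3.32, SE 0.35, adjusted p = 3e-06, edgeR quasi-likelihood test). Counts cannot tell more DNA copies from more accessibility here.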
